A study of Mus musculus with 12 samples.

Results

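The Igf2-H19 domain and the neighbouring Kcnq1 domain are clusters of imprinted genes on mouse chromosome 7, and 5 of their transcripts are described here: Igf2, H19, Cdkn1c, Kcnq1ot1 and Phlda2. They were taken by symbol and linked by Ensembl gene ID to the counts, and all 5 were found among the 21728 genes listed in any of 12 mRNA libraries. The libraries form 4 groups of 3. BPA PGCLCs are primordial germ cell-like cells at day 5 whose label gives 100 nM bisphenol A (BPA, a plasticiser with oestrogen-like activity), and untreated PGCLCs are the same stage with no treatment. BPA EpiLCs are epiblast-like cells that received 100 nM BPA 24 h after seeding, for a further 24 h, and untreated EpiLCs had none. All 4 groups derive from C57BL/6 embryonic stem cells with the reporters Blimp1-mVenus and Stella-ECFP, cultured in 2i and LIF and then for 48 h as EpiLCs. PGCLCs were sorted as positive for both reporters out of aggregates. The labels do not state whether the PGCLC medium held BPA or whether replicates came from separate cultures, so p-values measure only the spread between these libraries.

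In imprinted genes the parental copies are marked differently by DNA methylation, and as a rule only the maternal or only the paternal copy is transcribed. At Igf2-H19 the growth factor gene Igf2 is expressed from the paternal copy and the noncoding RNA gene H19 from the maternal copy, and both draw on shared enhancers through a control region bound by CTCF. At the Kcnq1 domain the paternally transcribed noncoding RNA Kcnq1ot1 silences its neighbours on the same chromosome, among them the growth-restraining genes Cdkn1c and Phlda2. Germ cell precursors of the mouse embryo erase these marks, and the Igf2 and H19 transcripts are also abundant in embryonic endoderm. Gene counts carry no information on which parental copy was transcribed.

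Counts assigned to genes ranged over 30375633 to 34309195 in the 3 BPA PGCLC libraries, 31688679 to 32047046 in untreated PGCLCs, 11785338 to 22029195 in BPA EpiLCs and 15367922 to 21840315 in untreated EpiLCs. Files list genes with at least 10 counts, so an unlisted gene has 9 or fewer. Untreated EpiLC replicate 3, whose description carries another number than its title, differed more from its group than the other libraries did, with a chi-square per degree of freedom of 84 and 111 against its replicates, where those 2 had 6.45 against each other. BPA PGCLC replicate 3 stood apart in the same way, at 46.8 and 45.8 against 3.62. All 9 germ cell markers were higher in untreated PGCLCs than in untreated EpiLCs, where 30.4% of the 17608 genes tested were higher. So were all 13 endoderm markers and 7 of 8 trophoblast markers tested. Of these, 6 endoderm markers and the trophoblast marker Elf5 were listed in no untreated EpiLC library. Such genes passed the filter through the PGCLC libraries, so nothing is drawn from these marker counts beside the share of all genes. Prdm1 and Dppa3 are the sort's reporter genes, and Prdm14 was listed in no EpiLC library. The summed level of the germ cell markers was 1098 to 1240 counts-per-million (CPM) in BPA PGCLCs and 1330 to 1508 CPM in untreated PGCLCs. It was 102 to 112 CPM in BPA EpiLCs and 105 to 112 CPM in untreated EpiLCs. The 8 epiblast markers were listed in every library of all 4 groups.

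The gene Igf2 (ENSMUSG00000048583, chr7:142650766-142666816, minus strand, GENCODE M21 on mm10) encodes insulin-like growth factor 2, a secreted growth factor of the embryo. It was among the more abundant transcripts of PGCLCs and close to the lower limit of the data in EpiLCs. Its level was 841, 776 and 844 CPM in BPA PGCLC replicates 1, 2 and 3, against 322, 312 and 248 CPM in untreated PGCLCs. Every BPA PGCLC library lay above every untreated one, and by count Igf2 ranked 84 to 117 among the genes of a BPA PGCLC library and 526 to 745 in an untreated one. The level was 3.65, 2.72 and 2.39 CPM in BPA EpiLCs, from 33 to 65 counts, against 2.87, 3.02 and 2.51 CPM in untreated EpiLCs, from 36 to 66 counts. These 2 ranges overlapped, and all 6 EpiLC libraries lay far below the PGCLCs.

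RefSeq gives 4 start sites for Igf2, and gene counts do not say which was used. The 250 bases before the start site nearest the 3′ end of the gene are shown because Igf2 had the smallest p of the 5 transcripts for BPA in PGCLCs (GRCm38.p6, chr7:142657497-142657746, minus strand). Capitals mark a CCAAT box (CCAAT, here on the opposite strand) and GC boxes (GGGCGG).
Igf2: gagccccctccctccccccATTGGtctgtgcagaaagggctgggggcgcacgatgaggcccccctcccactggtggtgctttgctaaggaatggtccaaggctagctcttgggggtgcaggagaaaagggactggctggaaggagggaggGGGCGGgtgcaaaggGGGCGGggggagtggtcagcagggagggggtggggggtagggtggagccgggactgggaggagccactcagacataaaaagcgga
The 2 GC boxes begin 100 and 85 bases before the start. Among the windows of the other Igf2 start sites none holds a CCAAT box, and only that at chr7:142658805-142659054 holds a GC box. Searched on both strands, a GC box is held by 32.7% and a CCAAT box by 33.8% of 32851 such RefSeq windows of the same length, and no 2 matches overlap here.

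H19 (ENSMUSG00000000031, chr7:142575529-142578143, minus strand), a noncoding RNA that serves as precursor of miR-675, starts 88.7 kb from Igf2. It was the most abundant of the 5 in PGCLCs. Its level was 4833, 4541 and 2992 CPM in BPA PGCLCs, against 1638, 1771 and 1573 CPM in untreated PGCLCs. The groups did not overlap, and replicate 3 was the lowest of the BPA PGCLCs. By count H19 ranked 5 or 6 in each BPA PGCLC library and 19 to 29 in the untreated ones, and it took 0.308% to 0.472% of assigned counts in BPA PGCLCs. In EpiLCs the level was 9.54, 8.97 and 10.5 CPM with BPA, against 10.7, 10.5 and 14.8 CPM without. Each BPA EpiLC library lay below each untreated one, narrowly at the closest pair, and the difference did not pass the test.

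The mature miR-675 forms are shown because they are the small RNA products of the H19 transcript. Capitals mark the seed, bases 2 to 8 (RefSeq, GRCm38.p6, minus strand, chr7:142577112-142577133 for the 5p arm and chr7:142577078-142577099 for the 3p arm).
mmu-miR-675-5p: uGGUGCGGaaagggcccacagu
mmu-miR-675-3p: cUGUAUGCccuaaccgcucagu
The arms have different seeds. The miRNA gene is listed in no count file, and these mRNA libraries do not measure the mature forms.

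**Figure D1:**
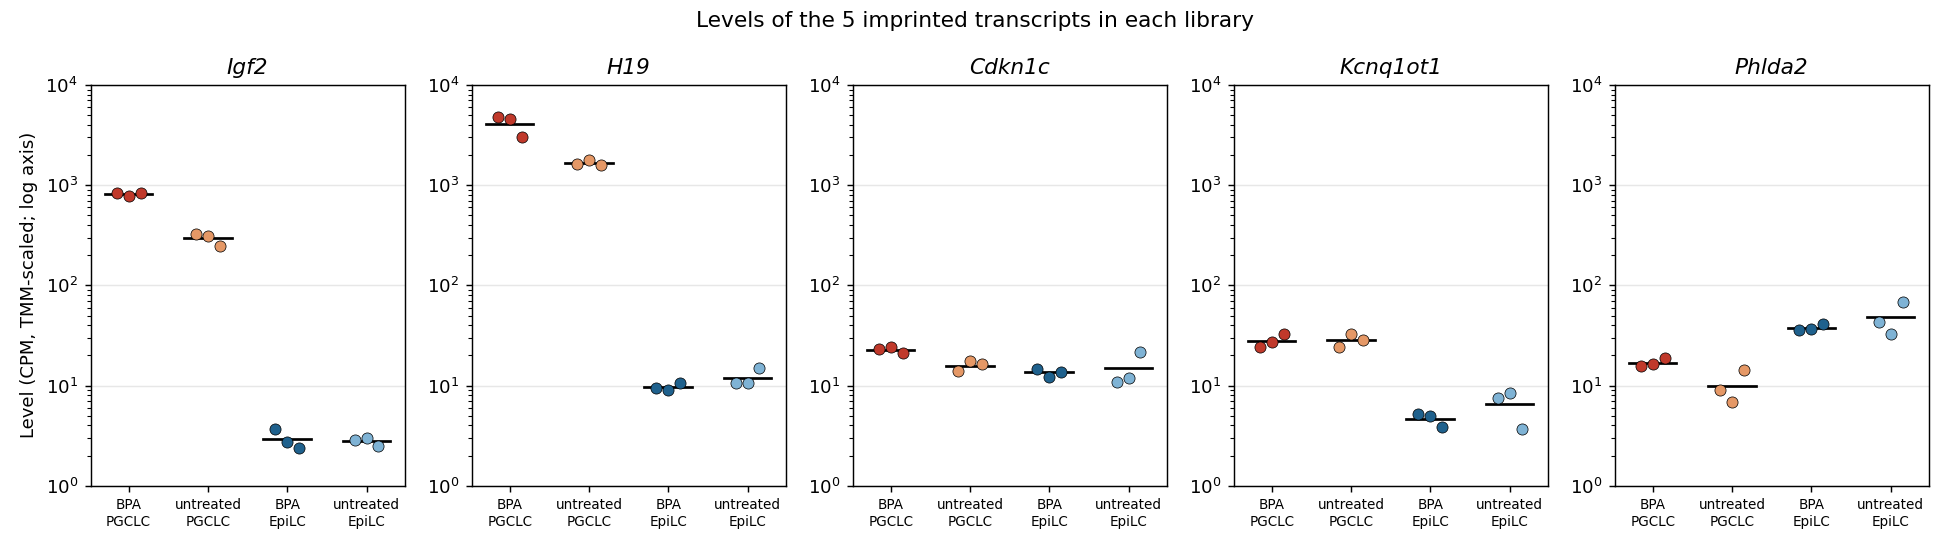
Level of each transcript in every library (y axis, TMM-scaled CPM on a log axis) for BPA PGCLCs, untreated PGCLCs, BPA EpiLCs and untreated EpiLCs (x axis); points are libraries, replicates 1 to 3 from left to right, and lines are group means. Igf2 and H19 sit at 248 CPM or more in all PGCLCs and under 15 CPM in all EpiLCs, and Phlda2 is higher in EpiLCs.

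Kcnq1ot1 (ENSMUSG00000101609, chr7:143203458-143296549, minus strand), the silencing RNA of the Kcnq1 domain, is annotated as an exon of 93.1 kb and was measured from few reads per kilobase. Its start lies 718 kb from that of H19, with the starts of Cdkn1c at 883 kb and Phlda2 at 925 kb on the same side. Its level was 24.5, 27.0 and 32.5 CPM in BPA PGCLCs, against 24.1, 32.4 and 28.8 CPM in untreated PGCLCs. These ranges nearly coincide. In EpiLCs it was 5.16, 5.02 and 3.87 CPM with BPA, against 7.58, 8.51 and 3.69 CPM without, so that untreated replicate 3 fell below every BPA EpiLC library while the other untreated ones lay above them. The 250 bases before its start (GRCm38.p6, chr7:143296548-143296797, minus strand) are shown with CCAAT boxes in capitals.
Kcnq1ot1: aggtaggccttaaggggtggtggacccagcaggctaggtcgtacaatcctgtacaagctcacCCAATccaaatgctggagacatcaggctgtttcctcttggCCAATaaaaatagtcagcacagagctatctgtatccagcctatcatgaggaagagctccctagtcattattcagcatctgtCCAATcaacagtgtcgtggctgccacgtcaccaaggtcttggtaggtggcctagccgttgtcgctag
The window holds 3 CCAAT boxes, beginning 188, 148 and 67 bases before the start, and no GC box. No TATA box (TATAAA) was found in it.

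Cdkn1c (ENSMUSG00000037664, chr7:143458339-143461050, minus strand) encodes p57, an inhibitor of cyclin-dependent kinases. Its level was 23.2, 24.4 and 21.1 CPM in BPA PGCLCs, against 13.8, 17.4 and 16.2 CPM in untreated PGCLCs. The groups did not overlap. In EpiLCs it was 14.8, 12.1 and 13.7 CPM with BPA, against 10.8, 11.98 and 21.9 CPM without, and untreated replicate 3 was the highest of all EpiLCs. Phlda2 (ENSMUSG00000010760, chr7:143501545-143503150, minus strand) encodes a small pleckstrin homology domain protein that restrains placental growth. Its level was 15.5, 16.3 and 19.002 CPM in BPA PGCLCs, against 8.99, 6.78 and 14.2 CPM in untreated PGCLCs. The lowest BPA library lay just above the highest untreated one. In EpiLCs it was 36.0, 36.3 and 40.9 CPM with BPA, against 42.6, 32.7 and 68.7 CPM without, where the untreated spread enclosed all 3 BPA libraries.

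The Phlda2 window (GRCm38.p6, chr7:143502525-143502774, minus strand) is shown because Phlda2 and Kcnq1ot1 moved in opposite directions between the stages. Capitals mark a CCAAT box, GC boxes and a TATA box.
Phlda2: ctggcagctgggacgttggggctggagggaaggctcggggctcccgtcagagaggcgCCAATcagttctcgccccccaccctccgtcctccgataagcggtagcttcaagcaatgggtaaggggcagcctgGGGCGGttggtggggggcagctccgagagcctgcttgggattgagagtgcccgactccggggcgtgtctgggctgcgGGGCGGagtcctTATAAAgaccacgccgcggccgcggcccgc
The TATA box begins 30 bases before the RefSeq start, and 12.4% of all windows hold such a match on either strand. This start lies inside the GENCODE M21 span of the gene, whose own start was used for the distance from H19. The Phlda2 window has 21 CpG dinucleotides and the Kcnq1ot1 window has 5; 83.7% and 44.4% of all windows have fewer. These matches are descriptions of the letters.

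Compared per kilobase of annotated exon, the order of the levels differed between the stages. The antisense Gm44732 shares 625 exonic bases with Cdkn1c, 30.65% of its exons, and Gm49394 covers 62.8% of the Igf2 exons. Neither is listed in any file, and how reads in shared bases were counted is not stated. Levels per kilobase of Cdkn1c and Igf2 carry that uncertainty. In BPA PGCLCs the order was H19 at 1676 ± 402 CPM per kb, Igf2 at 143 ± 6.73, Phlda2 at 15.1 ± 1.63, Cdkn1c at 11.2 ± 0.832 and Kcnq1ot1 at 0.301 ± 0.0439 (SD, n = 3), with no overlap between neighbours in that order. In untreated PGCLCs it was H19 at 675 ± 41.0 CPM per kb, Igf2 at 51.4 ± 7.10, Phlda2 at 8.90 ± 3.39, Cdkn1c at 7.76 ± 0.890 and Kcnq1ot1 at 0.306 ± 0.0448 (SD, n = 3), and there Phlda2 and Cdkn1c overlapped. In BPA EpiLCs it was Phlda2 at 33.7 ± 2.45 CPM per kb, Cdkn1c at 6.63 ± 0.659, H19 at 3.93 ± 0.314, Igf2 at 0.510 ± 0.114 and Kcnq1ot1 at 0.0503 ± 0.00759 (SD, n = 3). Untreated EpiLCs gave the same order, with Cdkn1c at 7.30 ± 2.98 and H19 at 4.89 ± 0.990 CPM per kb overlapping (SD, n = 3). By their means Phlda2 and Cdkn1c stood above Igf2 and H19 in EpiLCs, and below them in PGCLCs.

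BPA against untreated PGCLCs asks whether the germ cell-like cells of the BPA arm differ. In this comparison Igf2, H19 and Cdkn1c rose, Phlda2 did not pass the test and Kcnq1ot1 showed almost no difference. The log2 difference of Igf2 was 1.49 ± 0.10 (SE; adjusted p = 0.000338 by edgeR's quasi-likelihood test, n = 3 each), and that of H19 was 1.32 ± 0.16 (adjusted p = 0.00313 by edgeR). Cdkn1c had a log2 difference of 0.55 ± 0.13 (adjusted p = 0.0347 by edgeR). Thus 3 of 5 transcripts passed, all higher, where 13.9% of the 16753 genes tested passed in either direction 8.13% as higher and 5.72% as lower. For Igf2 and H19 the call held in all 16 alternatives run, with log2 differences of 1.37 to 1.55 for Igf2 and 1.19 to 1.52 for H19 when a library was left out. The Cdkn1c call was lost when any library other than BPA PGCLC replicate 3 was left out, with adjusted p of 0.0564 to 0.171 (edgeR), and with the 12-library fit (0.169) and a replicate block (0.0595).

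Phlda2 had a log2 difference of 0.77 ± 0.26 between BPA and untreated PGCLCs, with a 95% interval of 0.18 to 1.37 (adjusted p = 0.0842 by edgeR). It passed without untreated PGCLC replicate 3, its highest untreated library, at a log2 difference of 1.10 (adjusted p = 0.0355 by edgeR), and also with DESeq2 (adjusted p = 0.0478) and with the replicate block (0.0473). Kcnq1ot1 had a log2 difference of -0.01 ± 0.15, with an interval of -0.36 to 0.33 (adjusted p = 0.976 by edgeR). The ratio of H19 to Igf2 per kilobase was 13.4, 13.6 and 8.24 in BPA PGCLCs, against 11.8, 13.2 and 14.8 in untreated PGCLCs. The ratio in BPA replicate 3 was below all others, and no difference was detectable by an exact two-sided permutation test (p = 0.7, n = 3 each; the smallest p this design allows is 0.1).

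**Figure D2:**
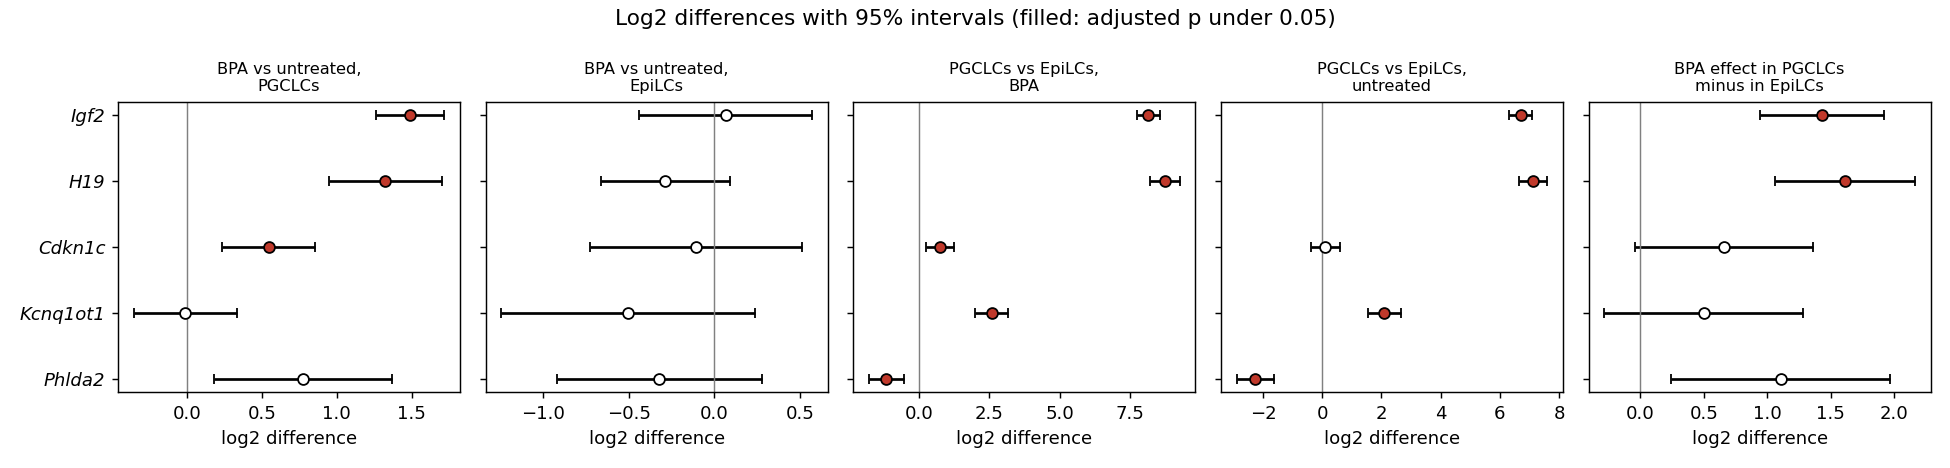
Log2 difference of each transcript (x axis; first group minus second, points with 95% intervals) in the 5 comparisons, with scales that differ between panels and filled points for an adjusted p under 0.05. Igf2, H19 and Cdkn1c were higher in BPA PGCLCs; no transcript passed for BPA in EpiLCs, and Igf2 and H19 passed for the BPA effect in PGCLCs less that in EpiLCs.

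The rows of reads without a unique position are listed in all 3 BPA PGCLC files, in 1 BPA EpiLC file and in no untreated file, and the PGCLC groups have library names of different kinds. Any difference in handling and BPA cannot be told apart in PGCLCs.

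In EpiLCs the same comparison called none of the 5 transcripts, and 0% of the 15252 genes tested were called by edgeR. Of these genes 118 had an unadjusted p under 0.05 (edgeR), far fewer than the share of 0.05 expected where no gene differs. The p-values were thus larger than expected, and the lack of calls does not show that BPA had no effect. DESeq2 called 16, limma voom 0 and limma-trend 0. The log2 difference was 0.07 ± 0.21 for Igf2, with an interval of -0.44 to 0.57, and -0.29 ± 0.16 for H19, with an interval of -0.67 to 0.09. Cdkn1c had -0.11 ± 0.26, Kcnq1ot1 -0.50 ± 0.31 and Phlda2 -0.32 ± 0.25. Adjusted p lay between 0.943 and 0.959 for all 5 (edgeR). Without untreated EpiLC replicate 3 the log2 differences were -0.02 for Igf2, -0.13 for H19, 0.25 for Cdkn1c, -0.80 for Kcnq1ot1 and 0.00358 for Phlda2, and none passed.

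Whether the difference between BPA and untreated libraries depended on the stage was read next. Handling in PGCLCs is not separated from BPA here either, and the labels do not state whether the PGCLC medium held BPA. The PGCLC difference less the EpiLC difference was 1.43 ± 0.22 (log2 ± SE) for Igf2 and 1.61 ± 0.25 for H19. Their adjusted p were 0.00987 and 0.0100 (edgeR). These 2 of 5 transcripts passed, both higher, where 1.32% of 17608 genes did and 1.01% did as higher. Both differences held in every leave-one-out, at 1.28 to 1.64 for Igf2 and 1.47 to 1.80 for H19, and neither passed with limma voom (adjusted p = 0.126 and 0.0700). Phlda2 had 1.10 ± 0.40 (adjusted p = 0.229), Cdkn1c 0.66 ± 0.32 (0.389) and Kcnq1ot1 0.50 ± 0.36 (0.620, all edgeR).

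The stage comparisons ask how PGCLCs differ from the EpiLCs they are made from. In untreated cells Igf2, H19 and Kcnq1ot1 rose in PGCLCs, Phlda2 fell and Cdkn1c did not pass. The log2 difference was 6.70 ± 0.17 for Igf2 (adjusted p = 2.89e-10 by edgeR), a ratio of mean CPM of 105, and 7.12 ± 0.22 for H19 (adjusted p = 8.09e-10), a ratio of 138. Kcnq1ot1 rose by 2.09 ± 0.26 (adjusted p = 2.98e-05) and Phlda2 fell by 2.26 ± 0.29 on the log2 scale (adjusted p = 4.46e-05, all edgeR). Cdkn1c had a difference of 0.10 ± 0.23 (adjusted p = 0.737 by edgeR). Thus 3 of 5 passed as higher and 1 as lower, where 55.6% of the 17608 genes tested passed, 30.4% as higher and 25.2% as lower. Cdkn1c depended on untreated EpiLC replicate 3: without it the log2 difference was 0.43 (adjusted p = 0.0292 by edgeR).

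Within the BPA arm all 5 transcripts passed, 4 as higher and 1 as lower, where 57.5% of genes did, 32.5% as higher and 25% as lower. Igf2 rose by 8.14 ± 0.18 and H19 by 8.73 ± 0.24 on the log2 scale, ratios of mean CPM of 281 and 426. Kcnq1ot1 rose by 2.59 ± 0.27 and Cdkn1c by 0.76 ± 0.23, while Phlda2 fell by 1.16 ± 0.28 (adjusted p = 6.18e-06, 0.0132 and 0.00394 by edgeR). The Cdkn1c call was lost without BPA EpiLC replicate 2 (adjusted p = 0.0592). The median log2 difference over all genes was 0.13 in this comparison and 0.07 in the untreated one, small beside the values above except that of Cdkn1c.

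Around Igf2 and H19, 9 of the 14 neighbours read could be tested in PGCLCs, and 2 of them rose with BPA and none fell, where 8.13% of all genes tested rose and 5.72% fell. Igf2os, an antisense transcript of Igf2, had 28.3, 27.7 and 18.7 CPM in BPA PGCLCs, against 8.64, 3.98 and 5.10 CPM in untreated PGCLCs. The groups did not overlap, and the log2 difference was 2.09 ± 0.30 (adjusted p = 0.00558 by edgeR). No EpiLC library listed Igf2os, which makes its mean level at least 45.2-fold higher in BPA PGCLCs than in BPA EpiLCs and at least 12.3-fold higher in untreated PGCLCs than in untreated EpiLCs, taking 9 counts per EpiLC library. It shares 98 exonic bases with Igf2, and whether the counting used strand is not stated in the labels, so reads there cannot be assigned with certainty. An annotated same-strand transcript, Gm49394, covers 62.8% of the Igf2 exons and is listed in no file.

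Ctsd, which encodes the lysosomal protease cathepsin D, was the other neighbour that rose, with 150, 155 and 112 CPM in BPA PGCLCs against 95.9, 91.5 and 97.8 CPM in untreated PGCLCs (log2 difference 0.56 ± 0.12, adjusted p = 0.0242 by edgeR). Mrpl23, a mitochondrial ribosomal protein gene next to H19, had a log2 difference of -0.01 ± 0.12, and Mob2 of -0.13 ± 0.17. The median over the 9 was 0.03, against 0.01 over all genes tested. In untreated PGCLCs against untreated EpiLCs, 5 of 9 were higher and 3 lower, where 30.4% of all genes tested were higher and 25.2% lower. The 5 were Igf2os, Tnnt3 and Ifitm10, listed in no untreated EpiLC library, and Lsp1 and Dusp8, listed in 1. They passed the filter through the PGCLC libraries, so nothing is drawn from their number beside the share of all genes. Mrpl23 had a log2 difference of -0.63 and Mob2 of -0.48, and Tnnt3, a troponin gene listed in no untreated EpiLC library, was at least 7.31-fold higher.

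In the Kcnq1 domain 11 of the 16 neighbours read were tested in PGCLCs; 1 rose and 1 fell with BPA, shares close to the 8.13% and 5.72% of all genes tested. Dhcr7, which encodes the last enzyme of cholesterol synthesis, had a log2 difference of 0.46 ± 0.10 (adjusted p = 0.0193) and Tssc4 one of -0.47 ± 0.12 (adjusted p = 0.0407, both edgeR). Dhcr7 was at 47.4, 49.1 and 55.1 CPM in BPA PGCLCs against 39.1, 34.9 and 36.8 CPM in untreated PGCLCs. Nap1l4, between Phlda2 and Cars, had a log2 difference of -0.04 ± 0.07 and Cd81 of -0.01 ± 0.12. The median over the 11 was -0.03. Between the stages, in untreated cells, 2 of 10 were higher and 6 lower in PGCLCs, beside 30.4% and 25.2% of all genes. Among them were Dhcr7 at a log2 difference of -2.41, Tnfrsf22 at -2.15, Tssc4 at -1.06 and Cd81 at 0.80. Slc22a18, the other that was higher, was listed in no untreated EpiLC library. Kcnq1, the potassium channel gene whose intron holds the Kcnq1ot1 start, was listed in no library.

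**Figure D3:**
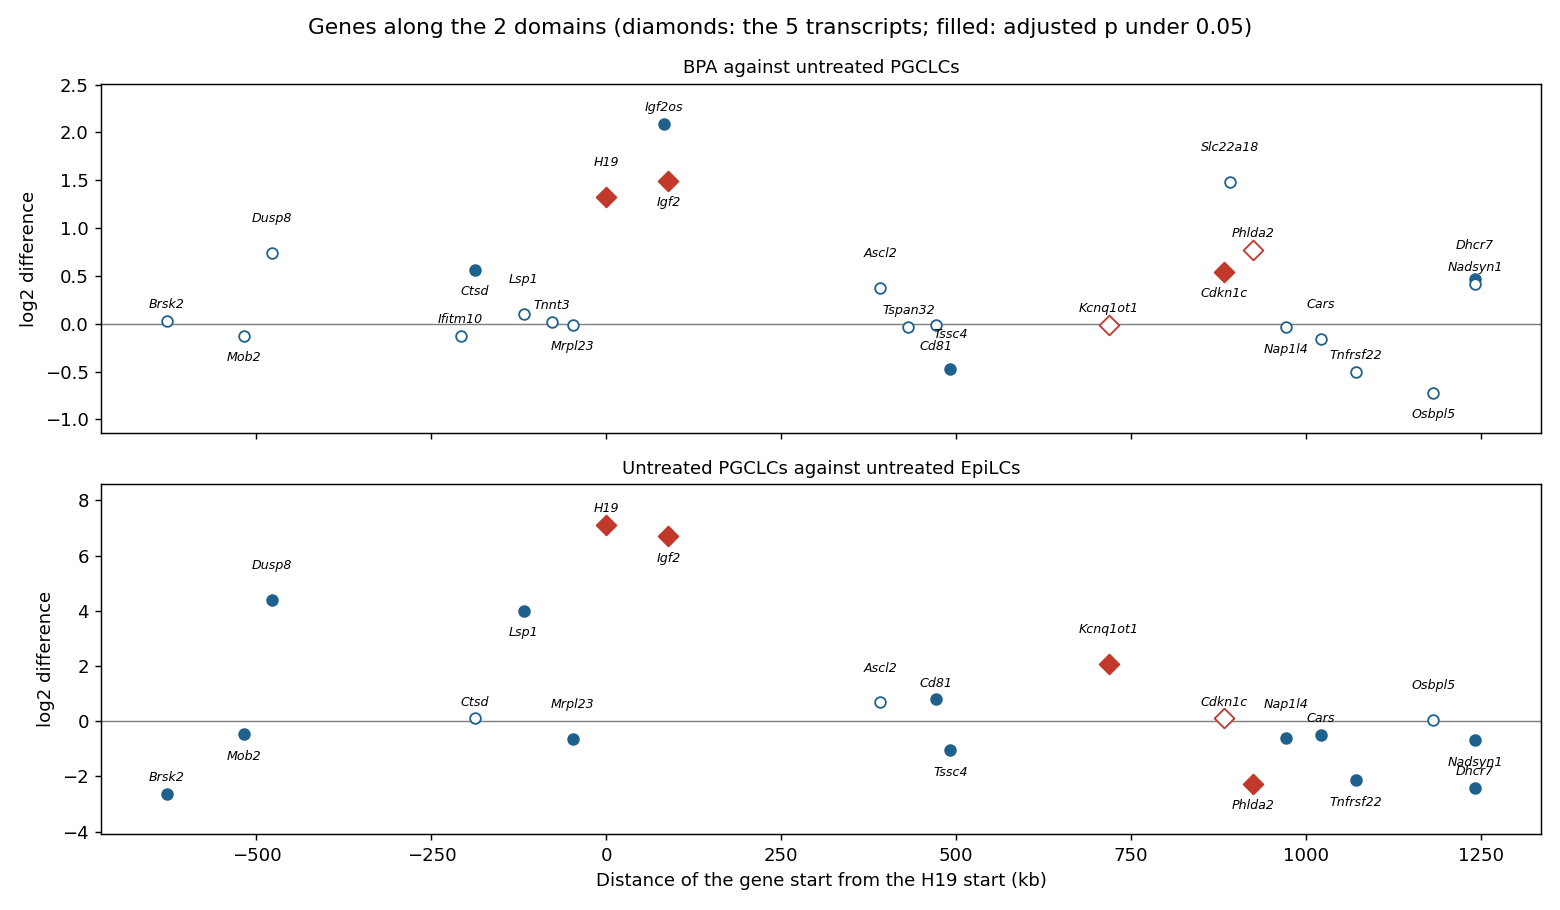
Log2 differences (y axis) of the 5 transcripts (diamonds) and their tested neighbours (circles) against the distance of each gene start from the H19 start in kb (x axis), for BPA against untreated PGCLCs (upper) and untreated PGCLCs against untreated EpiLCs (lower); filled symbols have an adjusted p under 0.05, and neighbours listed in no untreated EpiLC library are left out of the lower panel. With BPA the highest values are at H19, Igf2 and Igf2os, apart from Slc22a18, which did not pass.

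Genes of insulin-like growth factor signalling were also read. With BPA in PGCLCs 4 of 17 tested rose and 2 fell, beside 8.13% and 5.72% of all genes. The median log2 difference was 0.27, against 0.01 over all genes. Igfbp4, a secreted binding protein that holds these factors, had 1.27 ± 0.12 (adjusted p = 0.00120), Irs2, an adaptor of the receptors, 0.89 ± 0.14 (0.00720), Insr, the insulin receptor, 0.71 ± 0.10 (0.00511), and Igf2bp2, which binds the Igf2 mRNA, 0.70 ± 0.10 (0.00505, all edgeR). The 2 that fell were Igfbp3, at -0.69 ± 0.17, and Igf2bp1, at -0.28 ± 0.06. Igf2r, the receptor that clears IGF2 and is itself imprinted, had 0.28 ± 0.08 (adjusted p = 0.0568 by edgeR), and the main signalling receptor Igf1r had -0.07 ± 0.10. In untreated PGCLCs against untreated EpiLCs 12 of 16 were higher and 1 lower, beside 30.4% and 25.2% of all genes, with Igf2r at 2.29, Igf2bp2 at 1.80 and Igf1r at 1.34, and with the imprinted adaptor Grb10 at -0.74. Igf1, among the 12, was listed in no EpiLC library.

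Among 16 genes that set, keep or remove DNA methylation and imprints, 1 rose and 1 fell with BPA in PGCLCs, shares close to the 8.13% and 5.72% of all genes tested. Dnmt3a, a de novo DNA methyltransferase, had a log2 difference of 0.53 ± 0.11 (adjusted p = 0.0191) and Tet1, which oxidises methylcytosine, one of -0.30 ± 0.07 (adjusted p = 0.0232, both edgeR). Zfp57, which guards imprints, had -0.06 ± 0.11, and Ctcf -0.13 ± 0.05 (adjusted p = 0.142). Between the stages, in untreated cells, 7 were higher and 5 lower in PGCLCs, beside 30.4% and 25.2% of all genes. Those with the smallest p were Dnmt3a at -2.97, Dppa3 at 3.78, Dnmt3b at -1.73 and Tet2 at 3.09. Dppa3 is a gate of the sort.

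Of 12 cyclins, cyclin-dependent kinases and inhibitors related to p57, none rose and 5 fell with BPA in PGCLCs, beside 8.13% and 5.72% of all genes. The median log2 difference was -0.25, against 0.01 over all genes. Cdk6 had -1.10 ± 0.16 (adjusted p = 0.00609), Ccnd3 -0.43 ± 0.07 (0.00799) and Cdk1 -0.40 ± 0.06 (0.00542, all edgeR). The sister inhibitors Cdkn1a and Cdkn1b had 0.61 ± 0.19 (adjusted p = 0.0673) and 0.06 ± 0.08 (0.736) and did not pass. Of the relatives of Phlda2, Phlda1 rose by 1.88 ± 0.25 on the log2 scale, and Phlda3 did not pass (adjusted p = 0.997 by edgeR).

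Endoderm markers were higher as a sum in BPA PGCLCs than in untreated PGCLCs, and not every marker rose. Their summed level, over 13 genes, was 10413, 10953 and 5205 CPM in BPA PGCLCs, against 1418, 1013 and 903 CPM in untreated PGCLCs; it was 19.1 to 20.9 CPM in BPA EpiLCs and 12.6 to 22.6 CPM in untreated EpiLCs. With BPA in PGCLCs 8 of 13 rose and none fell, beside 8.13% and 5.72% of all genes, with a median log2 difference of 1.71 against 0.01. Gata4, Gata6, Sox17, Sox7 and Cubn did not pass. In BPA replicate 3 Sox17 was at 2.35 CPM, against 3.69 to 7.59 CPM in untreated PGCLCs. Sox7 was at 2.29 CPM there, against 8.52 to 10.8 CPM. Cubn, at 462.9 CPM there, lay just below its lowest untreated library. Afp, the fetal serum protein of yolk sac and liver, was at 2527, 2486 and 1365 CPM in BPA PGCLCs, against 46.4, 24.5 and 29.2 CPM in untreated PGCLCs. BPA replicate 3, lowest of its group for Afp and for the sum, was also lowest for H19 and Igf2os, and for Igf2 it was the highest. Afp, Ttr, Gata6, Sox17 and Hnf4a were unlisted in all 6 EpiLC libraries, as was the germ cell marker Prdm14.

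For the other marker lists the same shares of all genes, 8.13% higher and 5.72% lower, stand beside the counts. With BPA in PGCLCs 4 of 9 germ cell markers and 3 of 8 epiblast markers fell and none rose. For mesoderm 1 of 7 tested rose and 1 fell, with sums of 155 to 209 CPM in BPA PGCLCs and 142 to 176 CPM in untreated PGCLCs. For trophoblast 2 of 8 rose and 1 fell, with sums of 405 to 496 CPM in BPA PGCLCs and 314 to 395 CPM in untreated PGCLCs. Krt8 and Cdx2 rose and Krt7 fell. Krt8 alone gave 217 to 337 CPM of the sums in BPA PGCLCs and 148 to 185 CPM in untreated PGCLCs, so the sums largely follow this 1 gene. Blood and endothelial markers (1 of 7 rose) summed to 206 to 243 CPM and 200 to 222 CPM, and 0 of 3 neural markers passed. Pecam1 made up most of the blood and endothelial sums, at 173 to 203 CPM in BPA PGCLCs and 167 to 187 CPM in untreated PGCLCs. Hbb-bh1, the blood marker that rose, was listed in no untreated PGCLC library, and Mixl1, the mesoderm marker that rose, in 1. Hbb-bh1 was at 0.325, 0.399 and 4.21 CPM in BPA PGCLC replicates 1, 2 and 3, so its first 2 values lie near the listing limit. The part of these cells in the values of the 5 transcripts was not tested, and a change in the share of cells that express a gene and a change in RNA per cell cannot be told apart.

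**Figure D4:**
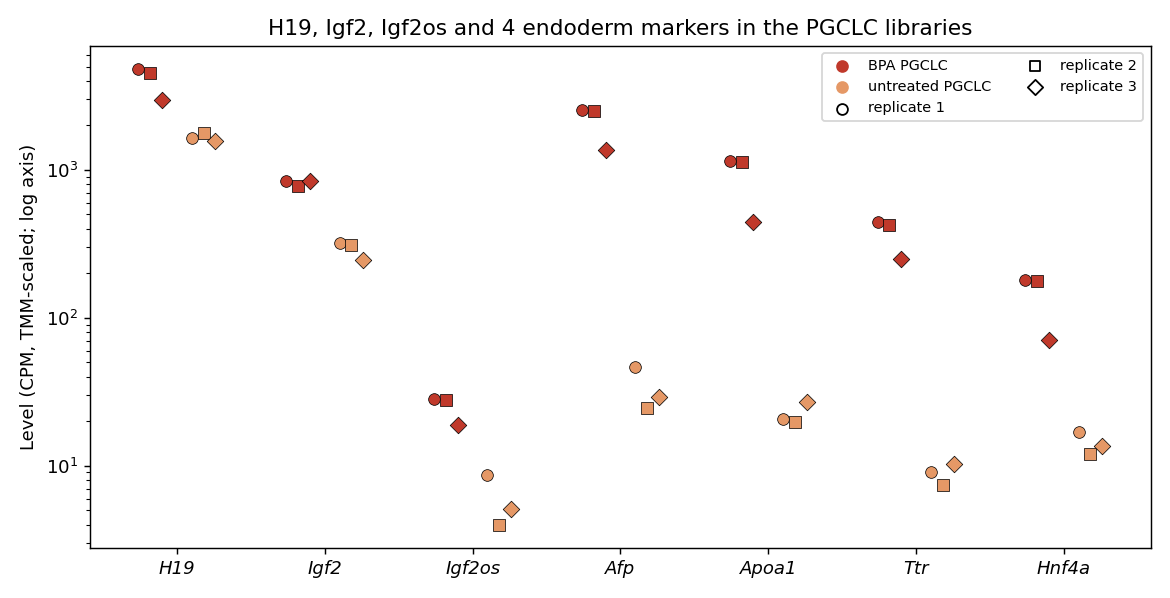
Level (y axis, TMM-scaled CPM, log axis) of H19, Igf2, Igf2os and 4 endoderm markers (x axis) in BPA PGCLC and untreated PGCLC libraries, with 1 symbol shape per replicate number. Afp, Apoa1, Ttr and Hnf4a are higher in all BPA PGCLC libraries, and replicate 3 is the lowest BPA library for each gene shown except Igf2. These 4 markers are among the 8 of 13 that passed the test.

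The genes whose pattern over the 12 libraries was most like each transcript were found among 14360 genes by the root mean square difference of centred log2 CPM. For Igf2 these were Klb at 0.33, Igf2os at 0.38 and Hapln1 at 0.40, and for H19 Gata6 at 0.34, Aqp8 at 0.35 and Klb at 0.38. For Cdkn1c they were Tpst2 at 0.14 and Washc1 and Fuca1, both at 0.15. Kcnq1ot1 was closest to Smarca2 and Egfl6, both at 0.24, and Dlc1 at 0.26, and Phlda2 to Srd5a1, Khk and Lrp3, at 0.25 to 0.26. The libraries of a stage lie together, so these distances describe mainly the stage difference. Igf2os and Gata6 were listed in no EpiLC library, so their EpiLC values here are those given to an unlisted gene rather than measured levels.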

How the data were processed

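The mRNA kit preserved strand, per the labels' protocols. Tools in the submitters' processing notes are STAR, HTSeq, FastQC and bcl2fastq 2.19.1.403, with the build mm10. The deposited files hold counts per Ensembl gene, with no gene below 10 counts, a limit set by the authors; reads without a feature were 4.42% to 10.7% and ambiguous reads 4.56% to 6.07%. The CPM tables deposited by the authors equal these counts divided by a constant per library and served only for a limma-trend alternative (log2 of CPM plus 1). Of 21728 IDs, 21695 were found in GENCODE M21, the source of symbols, coordinates and exon lengths; 3 of 5 members have a RefSeq promoter entry.

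Counts, with unlisted genes as 0, were filtered with filterByExpr, TMM-scaled and tested with edgeR 4.0.16 quasi-likelihood (R 4.3.3), Benjamini-Hochberg over all genes tested, threshold 0.05. BPA effects were fitted within a stage (6 libraries), and stage differences and the interaction over all 12. CPM levels use the TMM scale of all 12 libraries. SE is the log2 difference over the square root of F. Adjusted p of genes are from edgeR unless another tool is named. The code was tested on simulated data. Alternatives used limma 3.58.1, DESeq2 1.42.0, other scalings and filters, a replicate block and each library left out. Members and gene lists were chosen with earlier results of these data known. Up to 4 genes per list were named, by smallest p among those passing in PGCLCs with BPA or between untreated stages, plus any neighbour in the 2 domains. Others (Igf1, Igfbp3, Igf2bp1, Igf2r, Igf1r, Grb10, Zfp57, Ctcf, Cdkn1a, Cdkn1b, Prdm14, Gata4, Gata6, Sox17, Sox7, Cubn, Hnf4a, Mixl1, Hbb-bh1) were chosen after their values were seen. Same-numbered BPA and untreated replicates showed little shared deviation (r -0.0214 to 0.0566). This cannot exclude a shared culture or batch, and the main tests treated the numbers as unpaired.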

Additional observations from a re-analysis of the deposited data

Results flagged for a closer look

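The difference between BPA and untreated libraries depended on the cell stage for Igf2 and H19, by the interaction term of the 12-library fit. In PGCLCs any difference in handling and BPA cannot be told apart, and the labels do not state whether the PGCLC medium held BPA. For Igf2 the effect in PGCLCs minus that in EpiLCs was 1.43 ± 0.22 on the log2 scale (edgeR adjusted p = 0.00987), with all 3 BPA PGCLC libraries above all 3 untreated ones and overlapping EpiLC groups. For H19 it was 1.61 ± 0.25 (edgeR adjusted p = 0.0100), with all 3 BPA PGCLC libraries above all 3 untreated ones. The BPA EpiLC libraries lay below the untreated ones, but only narrowly at the closest pair (10.498 against 10.518 CPM). That EpiLC difference did not pass the test (edgeR adjusted p = 0.943). In EpiLCs Igf2 rested on 33 to 66 counts per library.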

How the results depend on the processing

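Igf2 and H19 kept their direction and their calls under every alternative in the PGCLC comparison with BPA and in both stage comparisons. For the difference of BPA effects, limma voom called 0 of the 5 transcripts; all other alternatives kept both. With DESeq2, EpiLC calls over all genes were 16. PGCLC calls, 2321 in all, ranged over 668 to 3206 with a library left out. Calls for the difference of effects, 232 in all, were 897 with DESeq2, 141 with limma voom, 519 with unlisted genes counted as 9, 150 with the replicate block, and 83 to 767 with a library left out. Leaving a library out turned the log2 difference of Igf2 in EpiLCs (-0.13 to 0.20), Cdkn1c in EpiLCs (-0.29 to 0.25), Phlda2 in EpiLCs (-0.53 to 0.00358), Kcnq1ot1 in PGCLCs (-0.13 to 0.0847) and Cdkn1c between untreated stages (-0.0889 to 0.43); only the last passed the test in any of these, without untreated EpiLC replicate 3. The replicate block left 1618 PGCLC calls; it ended the Cdkn1c call in PGCLCs, made Phlda2 pass there, and changed no other call of the 5. The causes were not tested. Depth limits Igf2 in EpiLCs (33 to 66 counts) and Kcnq1ot1 (53 to 186 counts); intervals over 3 libraries per group leave differences of up to 0.57 for Igf2 in EpiLCs.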
